A study of Oncorhynchus mykiss with 23 samples.

Results

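Of the 60195 probes on a rainbow trout microarray, 125 peaked in fast muscle after 4 days of refeeding by at least 1 log2 unit. A probe was a member when it was well above background on all 5 arrays of that time point and when its mean there lay at least 1 log2 unit above the mean of each of the other 4 feeding conditions. The count rests on single fish and on the processing. It was 237 without the fish RF4-5 and 63 after normexp background correction, and 44 probes were members whichever array was left out. The 125 made up 0.438% of the 28558 probes whose signal cleared background on each of those arrays. The members were chosen by these very means, so the height of the peak is described here without a test. Probes were counted rather than genes, and only 1 of the 125 carried a gene name in the material read here. The rule also leaves out probes of a few named genes, and unnamed members could not be checked for these.

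Rainbow trout were fasted for 30 days and then refed, and a slice of fast muscle from each fish gave Cy3-labelled RNA for 1 single-colour Agilent array. F0 held 5 fasted trout, RF4 held 5 trout after 4 days of refeeding, RF11 held 5 after 11 days, RF36 held 4 after 36 days, and C0 held 4 trout fed to satiation and sampled at day 30. Refed trout received 3 times the usual ration. Control trout lived in a tank of their own, so that feeding, tank and, for refed trout, sampling day cannot be told apart in a comparison with C0. All levels below are log2 signals minus the array's 75th percentile, so that a probe at 0 is as bright as that percentile.

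Fast muscle is the bulk of the trout fillet and serves as its protein store. During fasting its fibres lose protein through the ubiquitin-proteasome and autophagy pathways, and on refeeding nutrient and insulin-like growth factor signals turn the tissue back to RNA and protein synthesis. The chosen probes share a profile over these states and need not share a function.

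The share of spots well above background lay between 45.2% and 67.2% over the 23 arrays and was highest on C0-1. Arrays lay on 3 slides, each holding fish of all 5 groups, and 0 spots were saturated. Of 10 fast muscle markers, 3 had a named probe (ACTA1, CKM and TNNC2, skeletal actin, creatine kinase and fast troponin C), with a summed level between 9.69 and 10.2 in RF4, against 9.26 to 10.0 in F0 and 10.2 to 11.2 in C0. The connective tissue markers COL1A1, COL1A2, DCN, POSTN and SPARC, 5 of 8 listed, summed to 7.40 to 8.51 in RF4, 6.13 to 7.63 in F0 and 8.32 to 9.38 in C0. For white blood cells (1 of 10, LCP1) the range was 1.45 to 2.30 in RF4, 2.91 to 3.95 in F0 and 1.85 to 2.87 in C0, and for endothelium (1 of 5, KDR) it was -1.06 to -0.31 in RF4, -0.32 to 0.62 in F0 and -1.75 to 0.11 in C0. No marker of slow muscle, red blood cells, adipocytes or skin had a named probe. None of these 4 named lists had its highest range in RF4 among the 5 groups. White blood cells and endothelium rested on 1 marker each, and the part of other cell types in the RF4 peak was not tested. In muscle slices, fewer cells of a type and less RNA per cell cannot be told apart.

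The mean level of the 125 members in a fish was -1.08 ± 0.29 in F0, 1.31 ± 0.72 in RF4 and -0.29 ± 0.91 in RF11 (SD, n = 5 each), and -1.50 ± 0.33 in RF36 and -1.10 ± 0.45 in C0 (n = 4 each). The RF4 mean of a member exceeded that of F0 by a median of 2.10, that of RF11 by 1.42, that of RF36 by 2.74 and that of C0 by 1.99. RF11 was the next highest group for 74 members, C0 for 29, F0 for 15 and RF36 for 7. The RF11 mean held a median of 33.1% of the rise from F0 to RF4. The range over members was -134% to 75.3%, negative where RF11 lay below F0. Part of the rise had to be missing at RF11, since the rule sets RF4 at least 1 log2 unit above RF11.

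The 5 RF4 trout were not alike. Their mean member levels were 1.33 in RF4-2, 2.05 in RF4-3, 1.25 in RF4-4, 0.16 in RF4-5 and 1.76 in RF4-7. RF4-3 was the highest RF4 fish for 67 members and RF4-5 the lowest for 79. In RF11 the levels were -1.29 in RF11-1, -0.07 in RF11-2, 0.44 in RF11-4, -1.20 in RF11-5 and 0.67 in RF11-6. Thus RF11-4 and RF11-6 lay above RF4-5, while RF11-1 and RF11-5 lay at the level of fasted and control-fed trout. The 5 fasted trout spread only from -1.44 to -0.73, the 4 RF36 trout from -1.86 to -1.06 and the 4 control-fed trout from -1.49 to -0.49.

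**Figure D1:**
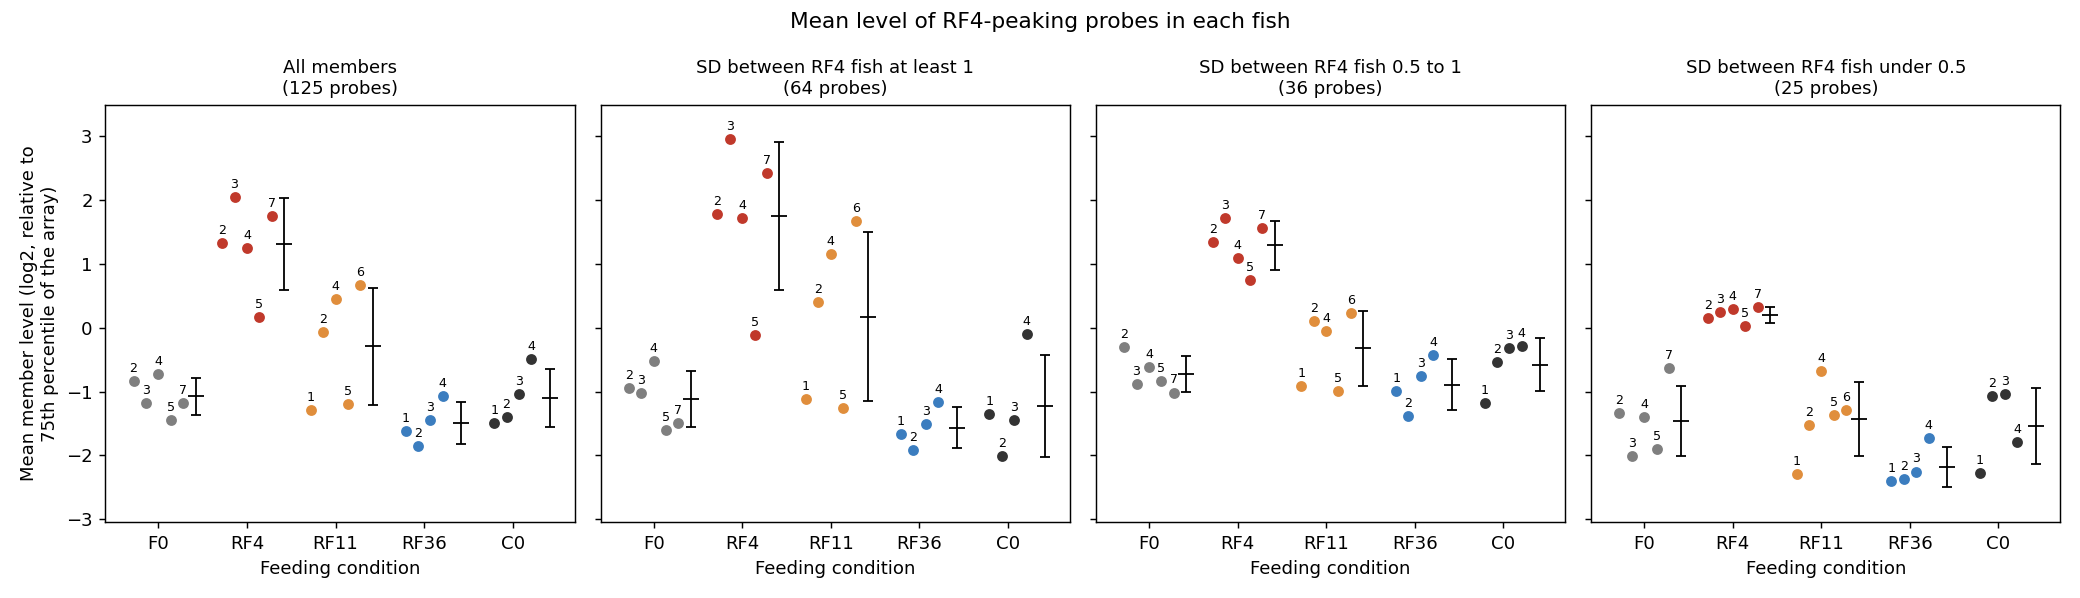
Mean level (log2, minus the array's 75th percentile) of the RF4-peaking probes in each fish, for all 125 members and for members grouped by the standard deviation between RF4 fish. Points are fish with their sample number, and the bar beside each group is the mean and SD. In the group of 64 probes RF4-5 lies at -0.11, below 3 of the 5 RF11 fish. Nothing is read from this, since the grouping uses the RF4 values.

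Spread between fish of a group was wider for members than for the 34200 probes tested. The median SD was 0.67 for members and 0.35 for all tested probes in F0, 1.02 and 0.31 in RF4, 1.33 and 0.33 in RF11, 0.60 and 0.29 in RF36, and 1.01 and 0.46 in C0. A single component held 73.6% of the members' spread between RF4 fish, against 40.9% over all probes well above background at RF4. These are descriptions over probes that share the same arrays, and the rule itself uses the RF4 values. Members that cleared background on all arrays of a group numbered 77 in F0, 84 in RF11, 47 in RF36 and 58 in C0. The rule requires this of every member at RF4, so no other group could have a higher count than RF4. The matching shares over all probes were not counted, and nothing is read from these counts. Members and tested probes were not matched for brightness, and the part of dim signal in these spreads was not tested.

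Members fell along a range of spread, which was divided at an SD between RF4 fish of 0.5 and of 1 after the values had been seen. In the 64 members with an SD of at least 1, the RF4 fish had mean levels of 1.79 (RF4-2), 2.95 (RF4-3), 1.72 (RF4-4), -0.11 (RF4-5) and 2.43 (RF4-7). The RF11 fish had -1.12 (RF11-1), 0.40 (RF11-2), 1.16 (RF11-4), -1.25 (RF11-5) and 1.67 (RF11-6). For these probes 4 of the 5 RF4 fish carried the high level, and 3 of 5 RF11 fish lay above RF4-5. The division picked probes on which RF4 fish differ, so nothing is read from the place of RF4-5. F0 averaged -1.12 ± 0.44, RF36 -1.57 ± 0.32 and C0 -1.23 ± 0.81, with C0-4 apart from its group at -0.10, against -2.01 to -1.35 in the other control-fed trout. RF4-5 was the lowest RF4 fish for 53 of these 64 probes and for 17.2% of all tested probes. Nothing is read from this, since the rule and the division by RF4 spread both use the RF4 values. C0-4 was the highest control fish for 47 of the 64 and for 19.9% of all tested probes. Many of the 64 followed each other closely over the arrays, as given below, so that they are not independent counts. RF11-6 exceeded the RF4 mean for 42 of the 64, and the matching share over all tested probes was not counted. Nothing is read from that count either, since the RF4 values chose the probes.

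RF4-2, RF4-7, RF11-1 and RF11-6 lay on slide 1, RF4-3, RF11-2 and RF11-4 on slide 2, and RF4-4, RF4-5 and RF11-5 on slide 3. Both low fish RF4-5 and RF11-5 were thus on slide 3, and RF11-1, low as well, was on slide 1. The share of spots well above background was 51.2% on RF4-5, the lowest of RF4. In RF11 it was 63.6% on RF11-6 and 61.3% on RF11-5, a high and a low fish for these probes, and 49.2% on RF11-4, a high fish with the lowest share of its group. The part of slide and of this share in the levels was not tested.

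In the 25 members with an SD under 0.5 the mean level was 0.14, 0.24, 0.29, 0.02 and 0.32 in RF4-2, RF4-3, RF4-4, RF4-5 and RF4-7, a mean of 0.20 ± 0.12. It was -1.46 ± 0.55 in F0, -1.43 ± 0.58 in RF11, -2.19 ± 0.32 in RF36 and -1.54 ± 0.60 in C0. All 5 RF4 fish lay above every other fish here, the nearest being F0-7 at -0.63, a separation that the rule and the division by RF4 spread favour. The RF11 mean lay within 1 SD of that of F0. RF11-6 exceeded RF4-5 for 0 of the 25 probes and for 53 of the 64 widely spread ones, counts that the same division bears on. The other 36 members lay between, with 1.29 ± 0.38 in RF4 and -0.32 ± 0.58 in RF11, against -0.73 ± 0.28 in F0, -0.89 ± 0.40 in RF36 and -0.58 ± 0.42 in C0.

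**Figure D2:**
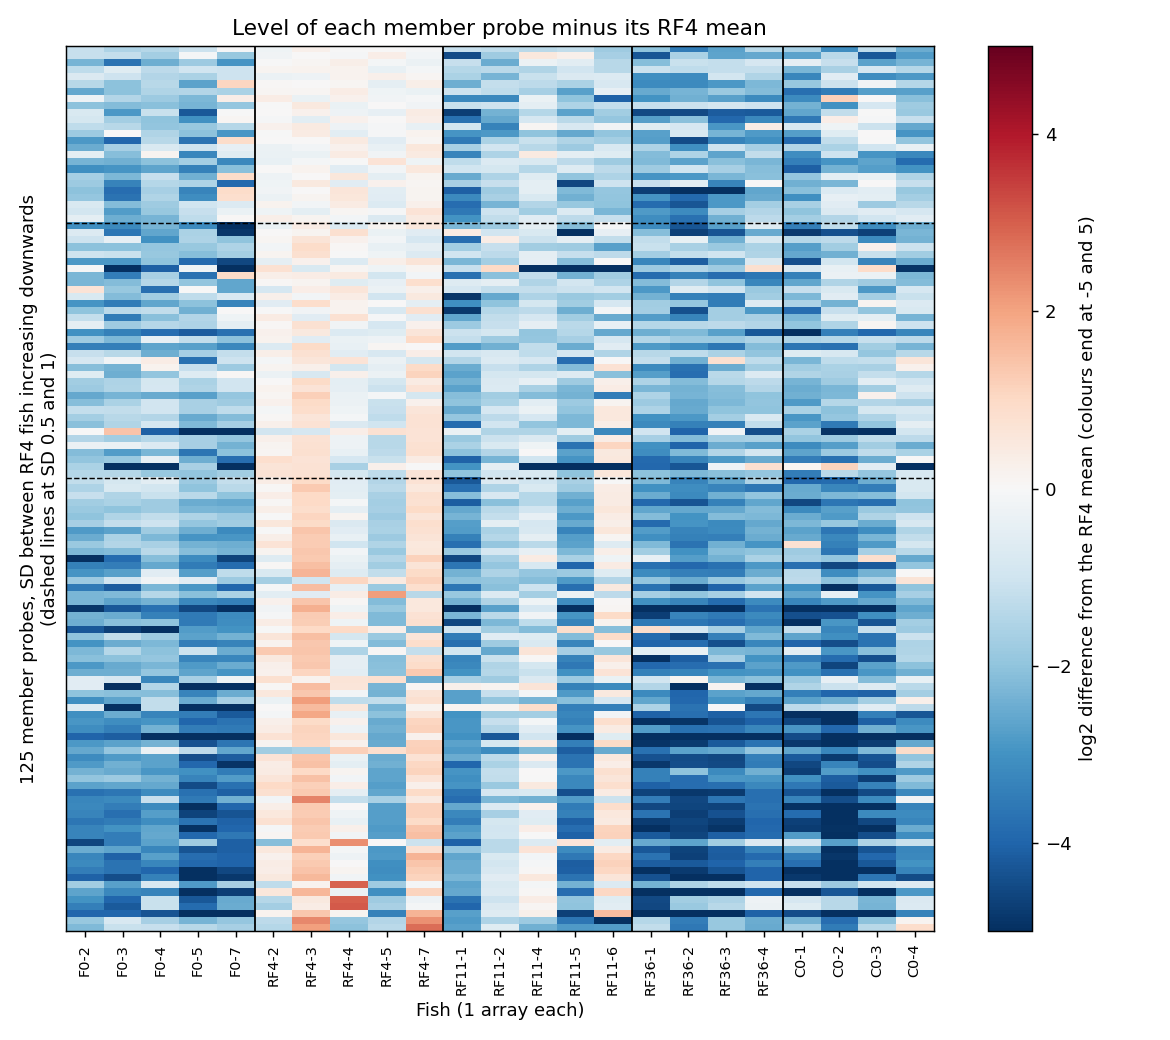
Level of each of the 125 member probes (rows, SD between RF4 fish increasing downwards, dashed lines at 0.5 and 1) in each fish (columns), as the log2 difference from the RF4 mean of the probe. In the lower block of 64 probes RF11-6 is red, above the RF4 mean, for 42 probes, while RF11-1, RF11-5 and RF4-5 are mostly blue. Nothing is read from the count of 42 or from the place of RF4-5, since the RF4 values chose and ordered the probes.

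The named member was TC126652, magnesium-dependent phosphatase 1 (mdp1, labelled mgdp1), a small phosphatase of the haloacid dehalogenase superfamily. Its levels were -0.16 (RF4-2), 0.32 (RF4-3), 0.04 (RF4-4), 0.08 (RF4-5) and -0.02 (RF4-7) in RF4, against -1.11 (F0-2), -1.48 (F0-3), -1.37 (F0-4), -1.04 (F0-5) and -0.0019 (F0-7) in F0. The RF4 fish were close to each other and lay above every fasted trout but F0-7. RF11 lay between -1.71 and -1.11, RF36 between -3.43 and -1.34 and C0 between -3.05 and -1.21, and in both RF36 and C0 only 2 of 4 arrays were well above background. The RF4 mean, 0.05 ± 0.18 (SD, n = 5), was 1.05 above F0, the next highest group, close to the threshold of the rule. Among the contrasts the rule did not use, the F0 mean of mdp1 was above that of C0 by 1.07 (standard error 0.37, limma adjusted p = 0.0421). That call was lost in 11 of 32 alternatives, over a range of adjusted p of 0.0086 to 0.365, and the difference ranged from 0.22, after normexp background correction, to 1.36. RF11 differed from F0 by -0.30 (adjusted p = 0.567), from C0 by 0.78 (adjusted p = 0.137), and RF36 from C0 by -0.26 (adjusted p = 0.715). The RF11 difference from C0 passed the threshold in 4 of 32 alternatives.

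Of the unnamed members, the 5 whose RF4 mean stood farthest above the next group were TC101749, TC96202, TC96308, CUST_191_PI425708691 and CUST_20917_PI425536763, with gaps of 3.12, 3.05, 2.47, 2.24 and 2.00. TC101749 was at 1.23, 3.17, 1.17, -0.49 and 1.94 in the RF4 fish in order of their numbers, against -3.46, -2.83, -2.34, -3.13 and -4.68 in the F0 fish, where 1 of 5 arrays was well above background. All RF4 fish lay above all fasted fish. At RF11 it split into 1.52 (RF11-6), 0.56 (RF11-4) and -1.32 (RF11-2) above background and -4.37 (RF11-1) and -4.97 (RF11-5) not above it. On RF36 arrays it was not well above background in any of 4 fish, so that RF4 was at least 3.62 log2 units higher. In C0, 1 of 4 arrays was above background.

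TC96202 stood at 1.84, 2.21, 1.69, -1.45 and 1.35 in RF4-2, RF4-3, RF4-4, RF4-5 and RF4-7, against -2.88, -3.01, -4.17, -4.70 and -4.68 in the 5 F0 fish, with 2 of 5 F0 arrays well above background. It was well above background on 0 of 4 arrays of RF36 and 0 of 4 of C0, and RF4 was at least 3.38 and at least 3.43 log2 units higher than these. For such bounds the dim group was set to the lowest signal of a probe well above background on each array, or to the probe's own signal where that was higher. RF11 ranged from -5.29 to 0.54, with 3 of 5 arrays well above background. The RF11 mean was not called different from that of C0, which was below background (limma adjusted p = 0.0666), and the call passed in 6 of 32 alternatives.

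TC96308 ranged from -0.89 (RF4-5) to 3.21 (RF4-3) in RF4, against -2.82 to -0.44 in F0, -3.10 to -0.34 in RF11, -3.82 to -2.75 in RF36 and -3.72 to 0.54 in C0. It was well above background on 0 of 4 RF36 arrays, so that RF4 was at least 2.98 log2 units higher, and on 1 of 4 C0 arrays. CUST_191_PI425708691 ranged from -1.19 (RF4-5) to 2.24 (RF4-3) in RF4, -2.53 to -1.002 in F0, -3.52 to 1.18 in RF11, -2.78 to -2.39 in RF36 and -4.45 to -0.70 in C0. Here too 0 of 4 RF36 arrays and 1 of 4 C0 arrays were well above background, and RF4 was at least 3.25 log2 units above RF36. CUST_20917_PI425536763 ranged from -0.18 (RF4-5) to 3.23 (RF4-3) in RF4, -2.47 to -0.61 in F0, -2.07 to 2.17 in RF11, -2.95 to -1.002 in RF36 and -4.08 to -0.32 in C0. In all 5 of these unnamed probes RF4-3 was the highest and RF4-5 the lowest RF4 fish, and for 4 of them the brightest array outside RF4 was RF11-6. Their 20 contrasts between other groups held 0 calls at an adjusted limma p under 0.05.

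**Figure D3:**
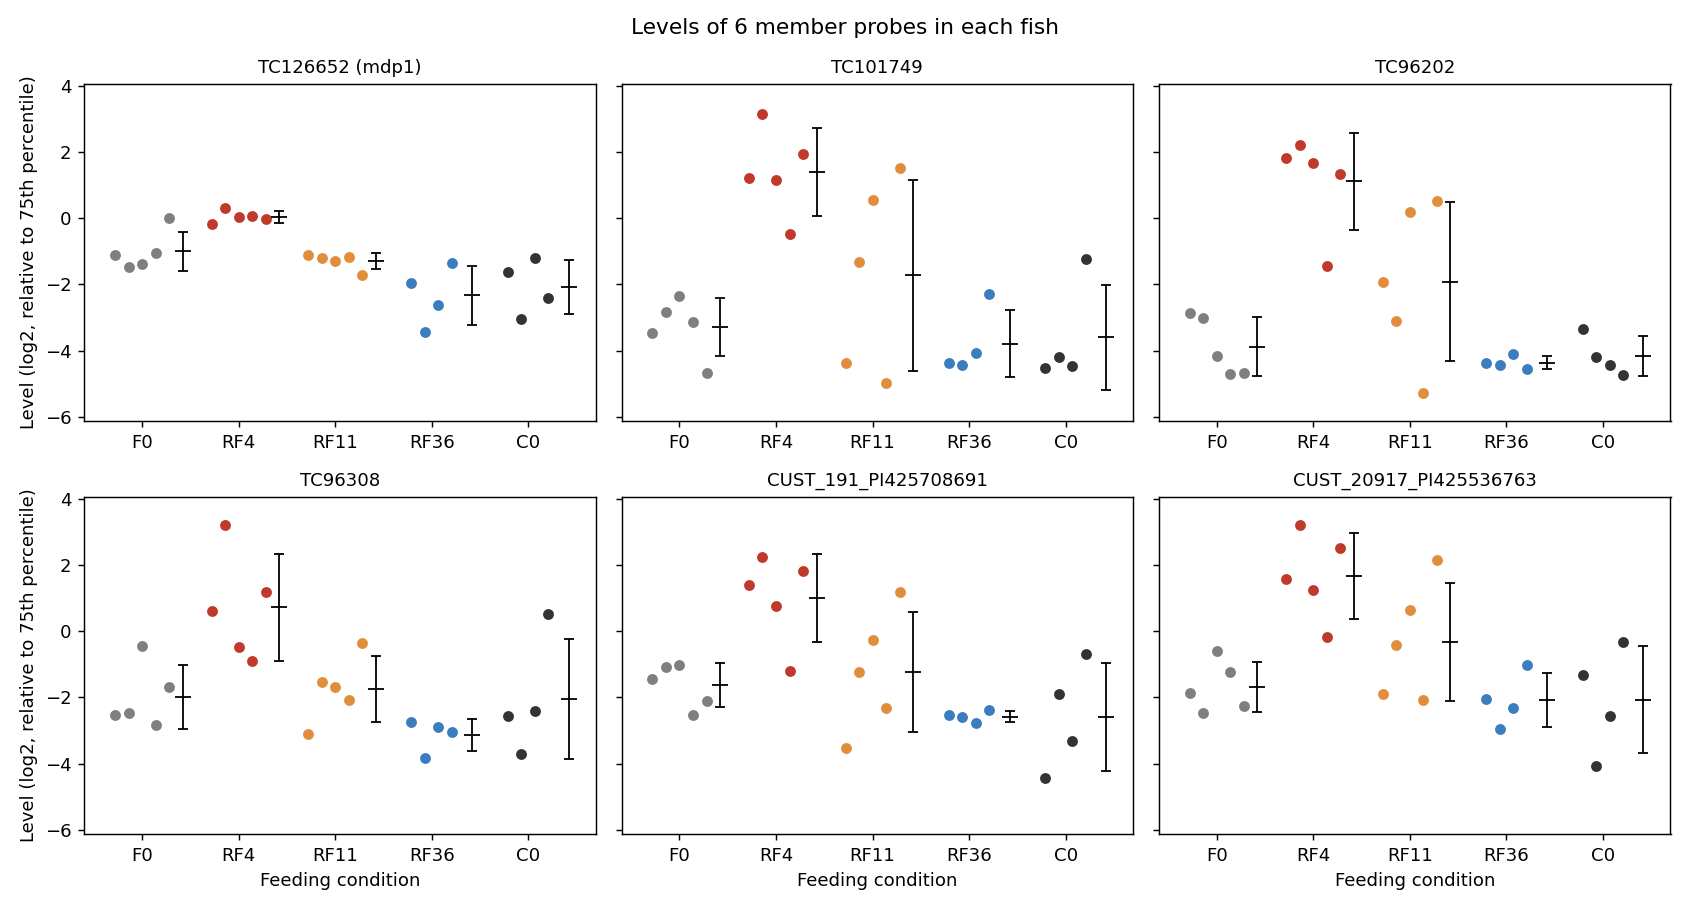
Levels (log2, minus the array's 75th percentile) of the named member and of the 5 unnamed members with the largest gap, in each fish by feeding condition, with mean and SD beside each group. The RF4 fish of mdp1 lie between -0.16 and 0.32, whereas those of TC101749 lie between -0.49 and 3.17.

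Single fish overlapped for most members. All RF4 fish lay above all fish of F0 for 49 members, of RF11 for 27, of RF36 for 96 and of C0 for 44. The matching shares over all probes were not counted, and the rule on group means favours such separation, so nothing is read from these counts. For 8 members the RF4 fish lay above all 18 others, and 0.504% of the 28558 probes well above background at RF4 had this separation. The 8 were TC100209, CUST_13572_PI425536763, TC107944, CUST_6062_PI425536763, CUST_2892_PI425536763, TC99376, TC109884 and CUST_5850_PI425536763, and 7 of them had an SD under 0.5 at RF4, from which nothing is read, since a narrow spread at RF4 and this separation both rest on the RF4 values. The member outside that class, TC100209, had levels of 3.90, 4.18, 3.03, 3.11 and 4.31 in RF4-2, RF4-3, RF4-4, RF4-5 and RF4-7, against 0.69, 0.32, -0.12, -0.44 and -0.04 in F0. Its RF11 fish lay between 1.13 and 2.84, its RF36 fish between -0.54 and 1.51 and its C0 fish between -1.75 and 0.44. The group means of TC100209 were lower at each later time, 2.12 at RF11 and 0.81 at RF36.

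TC109884 followed the same course. It stood at 2.39, 2.54, 1.81, 2.25 and 2.89 in RF4-2, RF4-3, RF4-4, RF4-5 and RF4-7, at 0.94 to 1.74 in RF11, at 0.24 to 1.37 in RF36, and at -0.99 to 0.28 in F0 and -1.69 to -0.01 in C0. RF11 lay above every fasted and every control-fed fish. Against F0 it was 1.78 higher at RF11 (standard error 0.29, limma adjusted p = 6.77e-05), and against C0 it was 1.99 higher at RF11 (standard error 0.31, adjusted p = 7.45e-05) and 1.39 higher at RF36 (standard error 0.33, adjusted p = 0.00781).

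The contrasts that leave out the RF4 mean were tested over all 34200 probes in 1 limma model, all 125 members among them. The model held 1 estimate of the spread over all 5 groups, so that a member's RF4 spread entered the standard error of each contrast. A wide spread at RF4 works against a call and a narrow one favours it. At RF4 the median SD was 1.02 for members and 0.31 for tested probes. The shares of members called below thus rest in part on the values that chose them. The rule used the means of these groups only against RF4. In F0 against C0, 6 members (4.80%) were called, while 20.3% of all tested probes were. The 3 higher in F0 were CUST_13572_PI425536763 (1.34, adjusted p = 0.00717), mdp1 and CUST_6062_PI425536763 (0.87, adjusted p = 0.0394), all of narrow spread at RF4, and 11.4% of tested probes were called higher. The 3 lower were CUST_4381_PI425536763 (-2.55, adjusted p = 0.0403), CUST_27687_PI425536763 (-2.46, adjusted p = 0.0467, well above background on 0 of 5 F0 arrays) and CUST_16018_PI425536763 (-1.77, adjusted p = 0.0221), beside 8.92% of tested probes. These probes were named because they were few, after their values had been seen. The median difference over members was 0.10, and 0.0024 over all tested probes. At an unadjusted p under 0.05 there were 17 members, and the matching share over all tested probes was not counted. Without F0-3, F0-7 or C0-1 the count of calls was 2, 3 or 4.

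At RF11 against F0, 27 members (21.6%) were called, all 27 higher in RF11. Of all tested probes 27.0% were called, 15.0% higher and 12.0% lower. The members' median difference was 0.64, against -0.07 over all tested probes, and 92 members had a positive and 33 a negative difference. Among the 64 widely spread members 18 were called, with a median of 1.36, and among the 25 of narrow spread 4 were called, with a median of -0.12. Nothing is read from the counts of calls by spread, since the division used RF4 values that also enter the standard error. The largest difference of a called probe was that of CUST_20446_PI425536763, at 2.49, 3.66, 2.44, -1.07 and 4.03 in RF4-2, RF4-3, RF4-4, RF4-5 and RF4-7. It had -0.42 (RF11-1), 1.67 (RF11-2), 2.56 (RF11-4), -2.36 (RF11-5) and 3.85 (RF11-6) in RF11, against -1.67, -1.64, -1.99, -4.79 and -3.66 in the 5 F0 fish. The RF11 mean was 3.81 higher (standard error 1.05, limma adjusted p = 0.00899), though RF11-5 lay below 3 fasted fish and only 2 of 5 F0 arrays were well above background. Without F0-5, F0-7, RF11-2, RF11-4 or RF11-6 the count of called members was 15, 15, 16, 13 or 14. Within slides the median member difference was 0.74, 1.02 and -0.09 on slides 1, 2 and 3, the last holding only RF11-5 of the RF11 fish.

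At RF11 against C0, 27 members (21.6%) were called, again all 27 higher in RF11, while 20.7% of all tested probes were called, 14.0% higher and 6.71% lower. The total share was near that of the array. The median difference was 0.70 over members and -0.08 over all tested probes. The 64 widely spread members held 20 of the calls and had a median of 1.43, and the 25 of narrow spread held 4 and had a median of -0.21. From these counts of calls by spread nothing is read either, for the same reason as against F0. TC126891 had 2.66, 4.52, 5.44, 1.72 and 6.08 in RF11-1, RF11-2, RF11-4, RF11-5 and RF11-6, against 0.28, -1.25, -0.33 and 1.87 in C0-1 to C0-4. It was 3.94 higher at RF11 (standard error 0.83, adjusted p = 0.00161), and RF11-5 alone overlapped the control fish, below C0-4. An unadjusted p under 0.05 was met by 48 members, and the matching share over all tested probes was not counted. The adjusted count was 16 without RF11-6, 17 without C0-2 and 21 (18 higher and 3 lower) without C0-1. The within-slide medians were 1.12, 1.66 and -0.51 on slides 1, 2 and 3. The contrasts at RF11 share the RF11 fish, so that their counts are not independent.

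**Figure D4:**
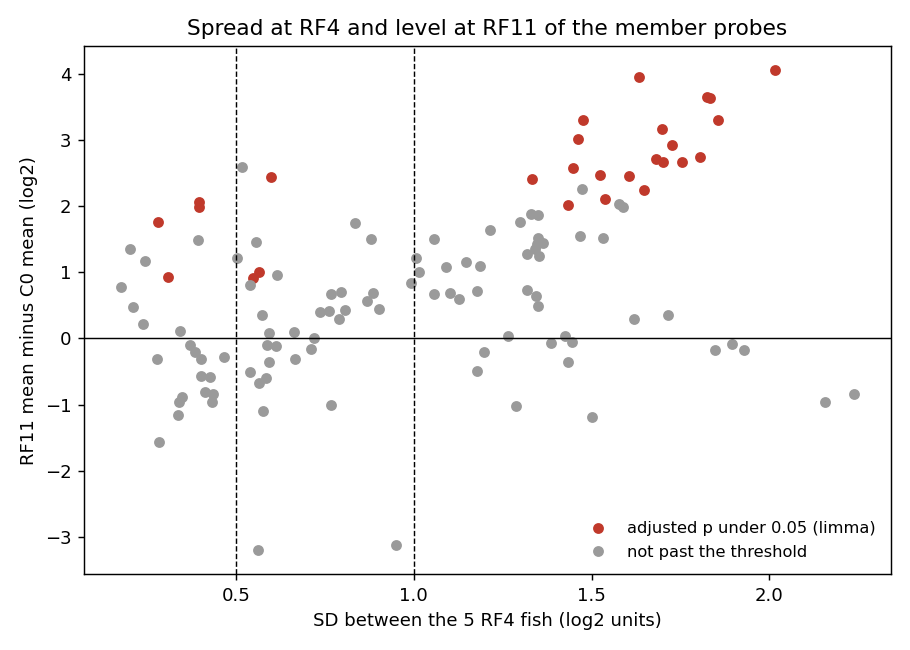
For each of the 125 member probes, the SD between the 5 RF4 fish (x axis, log2 units) and the RF11 mean minus the C0 mean (y axis, log2), with calls at an adjusted p under 0.05 in red. Of the 27 called probes 20 lie at an SD of at least 1, as do 64 of the 125 members. Nothing is read from this split, since the RF4 spread enters the standard error.

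In RF36 against C0, 6 members (4.80%) were called, beside 12.5% of all tested probes, and the median difference was -0.25 over members and 0.03 over all. The difference was negative for 92 members and positive for 33. The 2 higher, with 9.24% of tested probes called higher, were TC109884 and CUST_5850_PI425536763 (0.96, adjusted p = 0.0429). The 4 lower, a share near the 3.22% of tested probes, were CUST_24535_PI425536763 (-3.15, adjusted p = 0.0125), TC111285 (-2.91, adjusted p = 0.0112), CUST_6671_PI425536763 (-1.84, adjusted p = 0.0188) and TC121902 (-1.72, adjusted p = 0.0386). TC111285 and TC121902 were well above background on 0 of 4 RF36 arrays, and on 3 and 1 of 4 C0 arrays. CUST_24535_PI425536763 and CUST_6671_PI425536763 were so on 1 and 2 of 4 RF36 arrays, and on 4 of 4 C0 arrays. All 6 were of narrow spread at RF4, from which nothing is read, since that spread enters the standard error and a narrow one favours a call. They were named after their values had been seen. The count was 3 without RF36-1, without RF36-2 or without C0-2, and 8 without C0-1. An unadjusted p under 0.05 was met by 21 members, a count without its share over all tested probes. Over all members 23 were well above background on no RF36 array, against 3 in C0. The matching shares over all probes were not counted. The share of spots well above background was 45.2% to 55.8% on RF36 arrays and 48.0% to 67.2% on C0 arrays, and its part in these counts was not tested.

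Some members may measure the same transcript, which could not be told without their sequences. Over the 23 arrays, 273 of the 7750 pairs of members had a Pearson correlation over 0.95, and the median over all pairs was 0.55. Of the tested probes, 73 had a correlation over 0.9 with the mean of the 64 widely spread members, namely 46 members and 27 probes outside the rule. Of the 46 members, 42 were among those 64 and so form part of that mean. Whether the 27 measure the same transcripts as members could not be told either. By the origin given in the probe labels, 85 members came from assembled consensus sequences, 0.435% of the tested probes of that kind. Read set FZ8DYKY01 gave 8 members, 1.17% of its 685 tested probes, and F6VG15V01 gave 7, 1.37% of 510, while members were 0.365% of all tested probes. All 8 of FZ8DYKY01 were among the widely spread members. These read sets had the highest shares and were picked after the values had been seen. Other read sets gave 0 members, among them F6VG15V02 with 0 of 477. Members that measure the same transcript would raise such a share. The tissue or library behind these read sets is not given in the sources used here.

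At the threshold of the rule, the members just inside were TC101529, TC102322 and TC100631, with gaps of 1.01, 1.00 and 1.00, and the probes just outside were TC115768, TC113965 and TC109684, with gaps of 0.9997, 0.99 and 0.99. TC100631 had 0.20 to 1.04 in RF4 against -2.34 to 0.93 in RF36, a wide overlap, whereas TC109684, outside, had a narrow -0.92 to -0.63 in RF4 against -2.70 to -0.63 in F0. Of the annotated probes outside the rule, the nearest were TC116419, whose label in the files is cut short before a gene symbol, with a gap of 0.78, and CUST_15407_PI425536763, labelled PIM1, a serine/threonine kinase of growth factor and cytokine signalling in mammals, with a gap of 0.68. They were looked up after their values had been seen. TC116419 had 2.03 to 3.31 in RF4, against -0.25 to 2.23 in F0, -0.59 to 1.48 in RF11, -1.50 to 0.67 in RF36 and 0.99 to 2.53 in C0. Of 984 named probes well above background at RF4, mdp1 was the only member, beside 0.438% of all 28558 probes well above background there. Of the 1146 named probes on the array, 1087 took their name from the authors' heat map of genes that differed between these feeding conditions. Named probes are thus not a fair sample of the array, and nothing is read from this count. With 1 of 125 members named, the gene lists of ribosome biogenesis, translation and protein folding taken from the study and the textbook lists could not be looked up among the members.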

How the data were processed

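Each of the 23 arrays held the muscle RNA of 1 trout. The authors scanned them with Agilent Feature Extraction 10.7.3.1, and the deposited spot intensity is its background-subtracted, detrended processed signal, with no scaling between arrays. The authors' deposited table of log2 values, from scale normalisation, served as an alternative.

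Control spots and 145 outlier spots were left out, log2 signals were averaged over a probe's spots, and each array's 75th percentile over probes was subtracted. A probe was well above background where all its spots were. The 34200 probes that cleared background on 4 or more arrays in some group, without a missing value, were tested with limma 3.58.1 in R 4.3.3 (1 mean per feeding condition, Benjamini-Hochberg over all 34200, threshold 0.05, two-sided). The model was also run on simulated arrays with independent normal noise of 1 spread per probe. These held neither unequal spreads between groups nor fish effects shared by probes, so nothing is read from them for the members. Python 3.11.15, numpy 2.4.6, pandas 2.3.3 and matplotlib 3.10.9 made tables and figures.

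The members and gene lists were chosen with earlier results of these data known. The text names every named member, the 5 unnamed members of largest gap and the 3 probes on each side of the threshold. Names came from the scanner files, the RefSeq table and a shortened copy of the heat map file, and 1146 probes had one. Samples were individual trout, whose number limits the precision. Probe sequences and coordinates were not used here. Alternatives were the array median, quantile and normexp (offset 50, on spot median signals) scaling, other filters, blocks, gaps and thresholds, and each array left out.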

Additional observations from a re-analysis of the deposited data

Results flagged for a closer look

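Among the 35 groups of fish looked at were those of the named and the 5 unnamed probes shown. Of the 35, 4 held 1 fish far from the others by Dixon's criterion, which chance alone meets in about 1 of 20 groups. Over all members it was met in 28 of 625 groups. For TC126652 (mdp1), RF11-6 was lowest of its group at -1.709, the others lying between -1.284 and -1.111. For TC101749, RF36-4 was highest of its group at -2.29, the others lying between -4.441 and -4.082. Also for TC101749, C0-4 was highest of its group at -1.22, the others lying between -4.531 and -4.187. For TC96202, RF4-5 was lowest of its group at -1.446, the others lying between 1.349 and 2.208.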

How the results depend on the processing

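The number of members was 63 after normexp background correction (61 shared), 29 at a gap of 1.5 and 203 at a gap of 0.8, 209 with no requirement of signal above background, and 88 to 237 with each array left out, the highest without RF4-5 (120 shared). It was 138 with the array median or the authors' values and 127 with quantile scaling, and 44 probes were members in every leave-one-out. With the percentile taken over spots and a probe counted as bright if any spot was, a choice made after seeing the data, it was 127, all 125 among them. Calls in F0 against C0 numbered 2 with no filter on dim probes, with only these groups in the model or with an unmoderated contrast, 3 on probes bright on all arrays, 1 at an adjusted p under 0.01, and 2 to 7 with each array left out. In RF11 against F0 they numbered 14 with no filter, 11 on probes bright on all arrays, 15 unmoderated, 8 at 0.01 and 13 to 38 with each array left out. In RF11 against C0 they numbered 14 on probes bright on all arrays, 13 with only these groups, 10 at 0.01 and 16 to 38 with each array left out. In RF36 against C0 they numbered 3 after normexp and on probes bright on all arrays, 2 with only these groups, 1 at 0.01 and 3 to 9 with each array left out. Only 36 members were tested among probes bright on all arrays, so the counts in that setting are out of 36 and not 125. The cause of these shifts was not tested.

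Scaling to the array median moved the median of all tested probes to 0.19 in F0 against C0, 0.07 in RF11 against F0, 0.24 in RF11 against C0 and 0.27 in RF36 against C0, and the members' medians to 0.29, 0.78, 1.03 and -0.01. The share of calls that were higher over all probes was then 76.9%, 70.6%, 93.2% and 91.3%, against 56.2%, 55.6%, 67.5% and 74.2%, and the members' higher and lower calls were 3 and 1, 30 and 0, 35 and 0, and 4 and 3. After normexp the members' splits were 1 and 5, 26 and 1, 22 and 6, and 1 and 2, and their medians -0.17, 0.47, 0.28 and -0.23. With the sample number as a replicate block the 4 counts were 6, 26, 32 and 8, and with the slide as a block 4, 20, 22 and 7. Same-numbered fish correlated over 0.1 in 17 of 33 pairs (median 0.11, others -0.01), and the labels do not tie the numbers to a shared tank or day. Of the contrasts between other groups of the 6 probes shown, only that of mdp1 in F0 against C0 was called. It was lost in 11 of 32 alternatives, with a difference of 0.22 to 1.36, the other contrasts gained a call in 11 alternatives, and 0 turned direction while called. Signal over background limits the 23 members that were dim on all RF36 arrays, for which differences from RF36 can only be bounded.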

Other observations

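A pair of members was present in some fish and near absent in others of the same group. The pattern was noticed in the data, and members that show it were not counted. The rule requires signal well above background on all RF4 arrays, so a probe absent from an RF4 fish could not be a member. TC94740 stood at 2.75 to 4.29 in the 5 RF4 fish. In F0 it was 3.47 (F0-2) and 3.30 (F0-5), but -0.57 (F0-4), -2.16 (F0-3) and -4.19 (F0-7). In RF11 it was 2.36 (RF11-1) and 4.51 (RF11-2), but -3.47 (RF11-4), -4.24 (RF11-5) and -3.89 (RF11-6), these 3 and F0-7 not being well above background. In RF36 it was 1.70 to 4.31, and in C0 it was 2.80, 3.15 and 4.43 in C0-1, C0-2 and C0-3, but -1.38 in C0-4. TC94735 correlated with it over the 23 arrays (r = 0.883), 0 tested probes did so above 0.9, and the number between these values was not counted. The pair differed in RF36-1, RF36-2 and RF11-1, where TC94735 was at -2.74, -3.11 and -1.82 and TC94740 at 1.70, 2.06 and 2.36. RF11-5 was low for this pair and for the 64 widely spread members, but RF11-4 and RF11-6, low here, were high there. Other members split within a group as well. In F0-2, F0-3, F0-4, F0-5 and F0-7, TC104729 was at 0.6, -5.5, -0.3, -4.8 and -4.8. TC104574 was at 0.7, -5.2, 0.1, -4.8 and -4.7 in the same fish.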
